A study of Mus musculus with 16 samples.

Results

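The cytosolic ribosomal protein genes were followed through brown adipose tissue (BAT) of WT and GDF15 BKO mice. Members were taken by symbol: Rpl or Rps followed by a number, Rpsa, and Rplp0 to Rplp2, without the Rps6k kinases and without pseudogenes. This gave 86 genes of 49066, with 52 named for the large and 34 for the small ribosomal subunit. Of these, 77 are core ribosomal proteins and 8 are paralogs. The last, Rps19bp1, encodes a protein that binds Rps19 and is not itself a ribosomal protein. A mean of at least 1 TPM was reached by 85 members, and Rpl10l, a paralog of Rpl10 known from the testis, was listed at 0 in all 16 libraries. TPM, a length-scaled unit of transcript abundance, divides the reads of a transcript by its length and scales each library to the same total, so that a value is a share of the library.

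The tissue came from 18-week-old C57BL6/J mice that had been fed a high-fat diet (HFD, 60% of kcal from fat) for 12 weeks, with 4 WT and 4 KO mice of each sex. All mice carried floxed Gdf15 alleles. KO mice also carried the Ucp1-Cre transgene Tg(Ucp1-cre)1Evdr, which deletes in Ucp1-expressing adipocytes and leaves the gene in other cells. WT littermates had no Cre, so the transgene and the deletion cannot be told apart. Gdf15 lay between 0.062 and 0.311 TPM in female WT mice and was listed at 0 in 3 of 4 female KO mice, with 0.079 TPM in the other. In males it lay between 0.368 and 3.81 TPM in WT and between 0.080 and 0.272 TPM in KO mice. Its mean stayed below 1 TPM, so it was not tested. Ucp1, the uncoupling protein that defines brown adipocytes, was abundant in all groups, from 2915 ± 332 TPM (SD, n = 4) in female WT to 3755 ± 101 TPM in male KO mice.

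Ribosomes are built from a small subunit, which reads the mRNA, and a large subunit, which joins amino acids. Cells make the proteins of both subunits in balanced amounts, from genes that are scattered over the genome. Their mRNAs typically begin with a pyrimidine tract, the 5′ TOP, through which mTORC1 and Larp1 control their translation. A few have paralogs that are used in particular tissues, such as Rpl3l in striated muscle. In brown fat, protein synthesis supplies the enzymes and carriers of thermogenesis.

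The libraries were not uniform. Library names began with 10, 5, 8b or 9, a prefix whose meaning the labels do not give. Female WT libraries carried the prefixes 10, 8b, 8b and 8b in replicate order, female KO libraries 10, 5, 8b and 9, male WT libraries 5, 5, 9 and 9, and male KO libraries 10, 9, 9 and 9. Between 34.5 and 59.8% of the TPM belonged to mitochondrially encoded RNA. In female WT 4, transcripts that could not be matched to the annotation took 17.7%, most of it in 1 transcript with 16.5%, against 0.333 to 0.480% in the other libraries. For each comparison that uses this library, other than within the prefix 8b, the summary over the members is also given without it.

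Start regions of 5 genes are shown to make the shared and unshared features visible. They belong to Rps27, the core member with the largest female KO difference, to Rpl4, which was higher in every female KO mouse than in any female WT mouse, and to the paralogs Rps27l, Rpl22l1 and Rpl3l. Each runs from 25 bases before the RefSeq start to 25 bases after it, 5′ to 3′ on the strand of the gene, in GRCm38.p6. Capitals mark the pyrimidine run CTTTCC with its variants CTTTTCC and also CTCTTCC, as well as CCGGAA with its reverse complement TTCCGG. In Rps27 the run CTTTCC overlaps with TTCCGG. Rps27l and Rpl3l each have a further RefSeq start downstream. The windows at those starts hold none of the marked runs and are not shown.
Rps27, chr3:90213624-90213673, minus strand: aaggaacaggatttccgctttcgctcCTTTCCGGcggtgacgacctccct
Rpl4, chr9:64173362-64173411, plus strand: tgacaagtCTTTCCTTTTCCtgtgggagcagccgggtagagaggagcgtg
Rps27l, chr9:66946061-66946110, plus strand: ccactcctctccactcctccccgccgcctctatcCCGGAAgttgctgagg
Rpl22l1, chr3:28805483-28805532, plus strand: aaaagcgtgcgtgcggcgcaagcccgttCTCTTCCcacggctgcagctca
Rpl3l, chr17:24727801-24727850, plus strand: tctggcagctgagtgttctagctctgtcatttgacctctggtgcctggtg

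Windows from 250 bases before to 50 bases after the start were at hand for 66 member symbols, in 78 windows. CCGGAA, the core of the sites bound by ETS-family factors, was searched on both strands and stood in 47.4% of the member windows and in 14.9% of all 32851 windows. CTTTCC, a pyrimidine run of the kind at which TOP mRNAs start, was searched on the gene strand within 50 bases of the start and stood in 30.8% of member windows against 4.69% of all. CTTTTCC stood in 11.5% against 1.26% and CTCTTCC in 7.69% against 1.94%. TATAAA, searched in the 50 bases before the start, stood in 1.28% of member windows and in 2.63% of all. A match is a description of these letters and not of a bound site.

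Ribosomal protein genes were among the most abundant mRNAs of the tissue. The highest mean over 16 libraries was 600 TPM for Rpl41, the shortest ribosomal protein. It was followed by Rplp2 with 595 TPM and Rplp1 with 497 TPM, the acidic proteins of the stalk that recruits translation factors, and by the small-subunit proteins Rps29 with 441 and Rps2 with 438 TPM. Rplp2 lay at 646, 399, 566 and 419 TPM in female WT mice, 991, 674, 557 and 947 TPM in female KO mice, 448, 825, 446 and 519 TPM in male WT mice and 598, 546, 498 and 437 TPM in male KO mice. Between Rpl41 and Rplp2, and between Rps29 and Rps2, the spread over libraries was far wider than the difference of their means. The quartiles of the 77 core members were 133 and 306 TPM, with a median of 186 TPM.

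At the low end stood Rpl39l with 2.50 TPM, Rpl3l with 4.90, Rpl12 with 5.46, Rpl5 with 7.05 and Rps27rt with 7.94 TPM. Rpl39l, Rpl3l and Rps27rt are paralogs, but Rpl12 and Rpl5 are core proteins of the large subunit. Rpl5 carries the 5S rRNA together with Rpl11, and Rpl11 was listed at 164 TPM.

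The low values of Rpl12 and Rpl5 went together with high values of near-identical copies. Many ribosomal protein mRNAs have been copied back into the genome as processed pseudogenes, and kallisto divides reads that fit several transcripts among them. A search of the transcripts found 51 copy genes, with at least 99% identity over at least 80% of their length and a mean of at least 0.5 TPM, for 37 members. Gm10275, a copy of Rpl12, was listed at 178 TPM against 5.46 for Rpl12 itself. Gm15500, a copy of Rpl5, was listed at 179 TPM against 7.05. The following stretch of 60 bases is shared letter for letter by both transcripts, and is shown because no read inside it can be placed.
Rpl12, chr2:32961559-32965345, plus strand, transcript bases 255 to 314, coding: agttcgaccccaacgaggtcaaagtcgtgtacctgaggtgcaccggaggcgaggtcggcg
Gm10275, chr10:29698746-29699380, minus strand, transcript bases 101 to 160: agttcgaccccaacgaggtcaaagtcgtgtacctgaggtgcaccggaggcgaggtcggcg
Both are from GENCODE M21 on GRCm38, and the positions are those of the genes.

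Other copies were high as well. Gm14303 stood at 539 TPM beside Rps29 at 441 TPM, Gm7536 at 330 beside Rpl27a at 60.7, Rps23-ps1 at 291 beside Rps23 at 63.1, and Rpl28-ps1 at 322 beside Rpl28 at 207 TPM. In 20 cases a copy gene had a higher mean than its member. The copies together held 4788 TPM on average, against 17139 TPM of the members, and the ratio stayed between 0.270 and 0.306 over the 16 libraries. When copies were added to their member, the range of core means narrowed from 110-fold to 9.725-fold, Rpl12 reached 184 TPM and Rpl5 187 TPM, and the lowest core genes were Rpl39 with 101, Rpl14 with 117 and Rpl22 with 121 TPM. Levels of single members are therefore uncertain wherever such a copy exists. The fits below use the members as listed, and values with copies are given for those named members whose difference moved by more than 0.1 on the log2 scale.

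**Figure D1:**
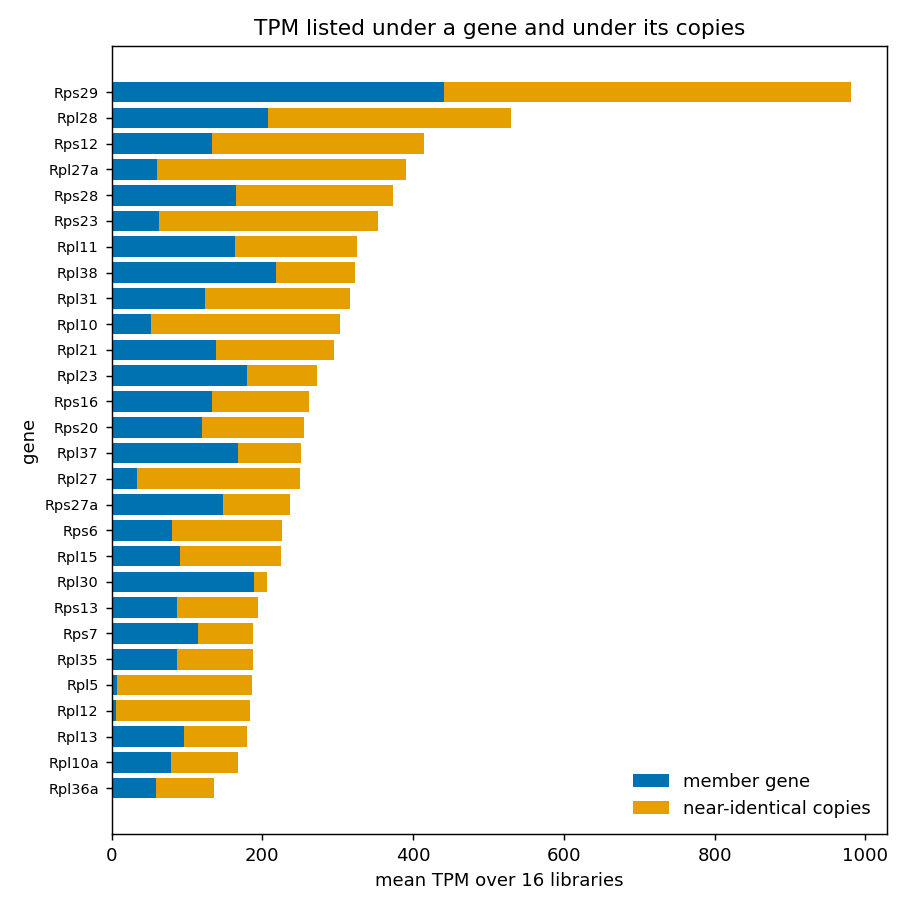
Mean TPM over 16 libraries listed under each ribosomal protein gene (blue) and under its near-identical copies (orange, stacked), for the 28 genes whose copies exceed 10 TPM. Rpl12 and Rpl5 have almost all of their signal under copies, with 5.46 and 7.05 TPM under the genes themselves.

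The division between gene and copy was not the same in every library. For 4 members the copies' share ranged over more than 20 percentage points: Rpl30, Rps7, Rpl10a and Rps16. Rpl30, a small protein of the large subunit, lay at 201, 164, 188 and 67.4 TPM in female WT mice and at 282, 209, 104 and 279 TPM in female KO mice. Its copies held 57.0% of the sum in female WT 4 and 59.1% in female KO 3, and at most 4.34% in the other 14 libraries. With copies added, the values were 201, 164, 193 and 157 TPM in female WT and 295, 209, 255 and 279 TPM in female KO mice, so the low values of female WT 4 and female KO 3 were much less pronounced. For Rps7, a small-subunit protein, the libraries were female WT 2 and again female KO 3: it lay at 42.7 TPM in female WT 2 and 55.9 TPM in female KO 3, where its copy Gm6472 held 71.9 and 72.9% of the sum, against 29.7 to 43.7% elsewhere. Adding copies lowered the spread of Rps7 relative to the members' median from an SD of 0.35 to 0.09 on the log2 scale and that of Rpl10a from 0.24 to 0.09. It lowered the spread of 29 of 37 members with copies, while that of Rpl21 went from 0.06 to 0.18.

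The members varied together from mouse to mouse. With group means removed, the correlation of a member's log2 value with the median of all members over the 16 libraries had a median of 0.96, and 68 of 85 members were above 0.9. Over all 12210 genes with a mean of at least 1 TPM the median was 0.36, and 322 were above 0.9. All genes of a library share its total, and the correlations are descriptions. The members that varied least around the common level, with an SD of 0.05 to 0.06, were Rpl26, Rps3a1, Rps15, Rpl21 and Rpl14. The most variable were Rpl3l (1.91), Rps27rt (0.82), Rpl39l (0.73), Rpl7l1 (0.40) and Rps7 (0.35). Rpl7l1, a paralog of Rpl7 that acts in the assembly of the large subunit rather than in the finished ribosome, did not follow the others, with a correlation of -0.05.

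Among genes outside the rule, the most alike in this measure were copies of members, Gm15500 with 0.99 and Rps23-ps1 with 0.98, followed by Eef1b2, a subunit of elongation factor 1, with 0.98. Ribosomal proteins that the symbol rule leaves out were close too: Rack1, a scaffold on the small subunit, and Fau, which encodes Rps30 fused to a ubiquitin-like domain, each with 0.97. Genes that are not ribosomal proteins were as close or closer, among them Crip1 and Selenok with 0.98 and Ndufa1 with 0.97. A high value in this measure is therefore not particular to ribosomal protein genes.

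The summed TPM of small-subunit members divided by that of large-subunit members lay between 0.739 and 0.786 in all 16 libraries, with group means of 0.758 ± 0.021 in female WT, 0.760 ± 0.009 in female KO, 0.763 ± 0.006 in male WT and 0.755 ± 0.007 in male KO mice (SD, n = 4). These sums are carried by the most abundant members. The median small-subunit member lay above the median large-subunit member by 0.091 to 0.377 on the log2 scale, with means of 0.173 ± 0.045 in female WT, 0.276 ± 0.117 in female KO, 0.123 ± 0.028 in male WT and 0.140 ± 0.043 in male KO mice, and no test of this difference was run.

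The comparison of KO with WT mice asks whether loss of Gdf15 in thermogenic adipocytes is accompanied by a change in these genes. In females, the members took 1.41 ± 0.355% of the TPM in WT and 2.10 ± 0.456% in KO mice, and in males 1.66 ± 0.402% and 1.69 ± 0.135% (SD, n = 4). The median member lay at 183, 127, 167 and 101 TPM in the female WT libraries and at 273, 187, 165 and 271 TPM in the female KO libraries. In males it lay at 140, 226, 146 and 174 TPM in WT and at 195, 183, 169 and 160 TPM in KO libraries. Female KO 1 and KO 4 were above all other libraries and female WT 4 was the lowest, female KO 2 lay just above the highest female WT library and female KO 3 lay inside the range of female WT. In bulk tissue, more RNA per cell and a different mix of cells cannot be told apart.

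**Figure D2:**
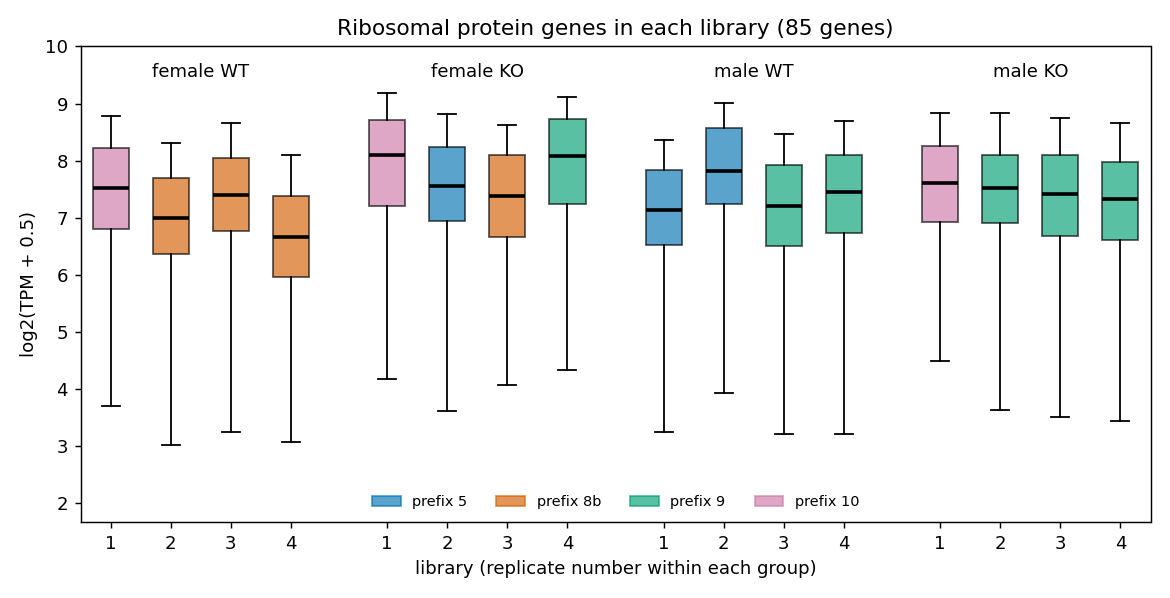
Distribution of the 85 tested ribosomal protein genes in each library on the log2(TPM + 0.5) scale; boxes span the quartiles, lines mark the median, whiskers reach the 5th and 95th percentile, and colours give the prefix of the library name. Medians run from 6.66 in female WT 4 to 8.10 in female KO 1, and the 4 male KO libraries stay between 7.32 and 7.61.

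Differences were fitted with limma on log2(TPM + 0.5) over all genes with a mean of at least 1 TPM, with Benjamini-Hochberg adjustment across the whole set and a threshold of 0.05. Fold changes on this scale understate the change of genes with few TPM. In females, 0 of 85 members passed the adjusted threshold, as did 0% of the 12141 genes tested. An unadjusted p under 0.05 with a higher value in KO was found for 55 members, against 11.6% of all genes, and for 0 members with a lower value, against 5.45%. All 85 members had a higher mean in KO, against 62.7% of all genes, with a median log2 difference of 0.59 against 0.10 over all genes. Because the members varied together, their counts are not separate pieces of evidence. Of the other genes in the same range of transcript length, 2411 had a median of 0.23, and 458 genes in the same range of level had a median of 0.16.

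Groups did not overlap for 6 members, all higher in KO, against 4.89% of all genes. Among the 6, Rps20, a small-subunit protein, had the smallest unadjusted p. It lay at 107, 82.7, 109 and 70.8 TPM in female WT and at 204, 129.994, 121 and 191 TPM in female KO mice, a log2 difference of 0.79 (SE 0.22, adjusted p = 0.23 by limma). Rpl4, which lines the exit tunnel of the nascent chain and whose start region is printed above, lay at 154, 121, 141 and 104 TPM in WT and at 206, 158, 161 and 201 TPM in KO mice, a difference of 0.49 (SE 0.17). The others were Rpl37a (0.75), Rpl32 (0.68), Rps16 (0.59) and Rps4x (0.55), with adjusted p-values from 0.23 to 0.24.

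By size, the largest female differences were those of Rpl39l (1.15, SE 0.45) and Rps27rt (0.94, SE 0.45), both low and variable, and of Rps27 (0.88, SE 0.32, adjusted p = 0.25 by limma), Rps28 (0.86, or 0.75 with its copies) and Rpl10a (0.84, or 0.54 with its copies). Rps27 lay at 310, 209, 286 and 126 TPM in WT and at 520, 346, 276 and 538 TPM in KO mice, so that only female KO 3 lay inside the range of WT. The smallest differences belonged to Rpl7l1 (0.16), to Rpsa (0.28), a small-subunit protein also known as a laminin receptor, and to Rps27l (0.28), Rps2 (0.33) and Rpl11 (0.38, or 0.49 with its copies). The stalk proteins were in between, with 0.42 for Rplp0, 0.52 for Rplp1 and 0.63 for Rplp2. Small-subunit and large-subunit members had the same median of 0.59.

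The female difference was spread unevenly over libraries and prefixes. When single mice were left out, the median stayed between 0.43 and 0.71, but the number of members with an unadjusted p under 0.05 ranged from 9 to 75: it was 9 without KO 1, 10 without KO 4, and 14 without WT 2 or without WT 4. Without WT 4 the median was 0.43. Within the prefix 10 (1 KO and 1 WT library), 84 of 85 members were higher in KO, against 49.2% of all genes, with a median of 0.52 against 0.00 over all genes. Within the prefix 8b (1 KO and 3 WT libraries), 82 were higher, against 53.8% of all genes, with a median of 0.35 against 0.03. The median member of this prefix lay at 165 TPM in KO 3 and at 127, 167 and 101 TPM in WT 2, WT 3 and WT 4. KO 3 was thus not above WT 3, and no value without WT 4 is given for this prefix. With the prefix 8b as a covariate, all 85 were higher with a median of 0.36, and 3 had an unadjusted p under 0.05. When mitochondrial transcripts were taken out of the total, the median was 0.55 and 13 had an unadjusted p under 0.05, and when unmatched transcripts were also taken out, a setting chosen after seeing the data, the values were 0.43 and 37.

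All 5 endothelial markers had an unadjusted p under 0.05 in the direction of KO, with a median log2 difference of 0.76 and a summed level of 120 to 168 TPM in WT against 192 to 373 TPM in KO mice. All 6 brown adipocyte markers had higher means, with a median of 0.27 and no unadjusted p under 0.05. The same held for all 10 muscle markers (median 1.20) and all 5 tested fibroblast markers (median 0.21). Of 6 tested macrophage markers 4 were higher (median 0.03), 1 of them with an unadjusted p under 0.05. Among 5 erythroid markers 0 were higher (median -0.22), and of 2 tested neutrophil markers 1 was higher. The 5 adipocyte markers were split, with Cfd at 1.17 (unadjusted p under 0.05), Lep at -1.98 and Plin1 at -0.34. Of 10 common housekeeping genes 7 had higher means, such as Actb (0.17), with a median of 0.09, and the lowest was Gapdh (-0.37). The part of these lists in the ribosomal protein result was not tested.

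In males, 0 of 85 members passed the adjusted threshold, against 0.00821% of the 12176 genes tested. An unadjusted p under 0.05 was reached by 2 members in the direction of KO, against 17.7% of all genes. A higher mean in KO was found for 61 members, against 79.9% of all genes, and a lower one for 24, against 20.1%, and the median log2 difference was 0.03 against 0.16 over all genes. The direction of the members as a whole depended on the scaling: with median-of-ratios scaling 9 were higher and the median was -0.14, and without mitochondrial transcripts 22 were higher with a median of -0.07. Scaling moves all genes of a library alike, and the shares of all genes under these settings are not given here. Without male WT 1 the number of higher members was 30 and without male WT 3 it was 33. Leaving out single libraries moved the median between -0.049 and 0.19 and the 2 members with an unadjusted p under 0.05 between 0, without male KO 2, and 17, without male WT 2. Within the prefix 9 (3 KO and 2 WT libraries), 78 members were higher, against 77.0% of all genes, with a median of 0.10 against 0.14 over all genes.

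The 2 male members with an unadjusted p under 0.05 were Rpl7l1 and Rpl10. Rpl7l1 lay at 16.97, 21.04, 23.1 and 24.7 TPM in male WT and at 25.5, 30.6, 25.1 and 29.3 TPM in male KO mice. It was the only member whose male groups did not overlap, against 9.55% of all genes higher and 0.673% lower without overlap, and differed by 0.37 (SE 0.13, adjusted p = 0.22 by limma). Rpl10, a late-joining protein near the peptidyl transferase centre, differed by 0.28 (SE 0.12), and by 0.13 with its copies added. The largest differences upward were those of Rpl3l (0.61, SE 1.1) and Rpl12 (0.51, and 0.02 with its copies). The largest downward were those of Rpl39l (-0.75), Rps27rt (-0.51) and Rps27 (-0.12, SE 0.20). Macrophage markers (5 of 6), fibroblast markers (3 of 5) and erythroid markers (5 of 5) had an unadjusted p under 0.05 in the direction of KO, as did endothelial markers (2 of 5). Of 6 brown adipocyte markers 1 was higher (median -0.10), and Ppargc1a (-0.31) was lower with an unadjusted p under 0.05. Adipocyte markers were split: Lep (1.03) and Plin1 (0.36) were higher and Cfd (-2.19) lower, each with an unadjusted p under 0.05. All 10 muscle markers (median 0.49) and 0 of 2 tested neutrophil markers were higher, with no unadjusted p under 0.05. The 10 housekeeping genes all had higher means, with a median of 0.30 and 3 with an unadjusted p under 0.05. The part of these lists in the male values was not tested.

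**Figure D3:**
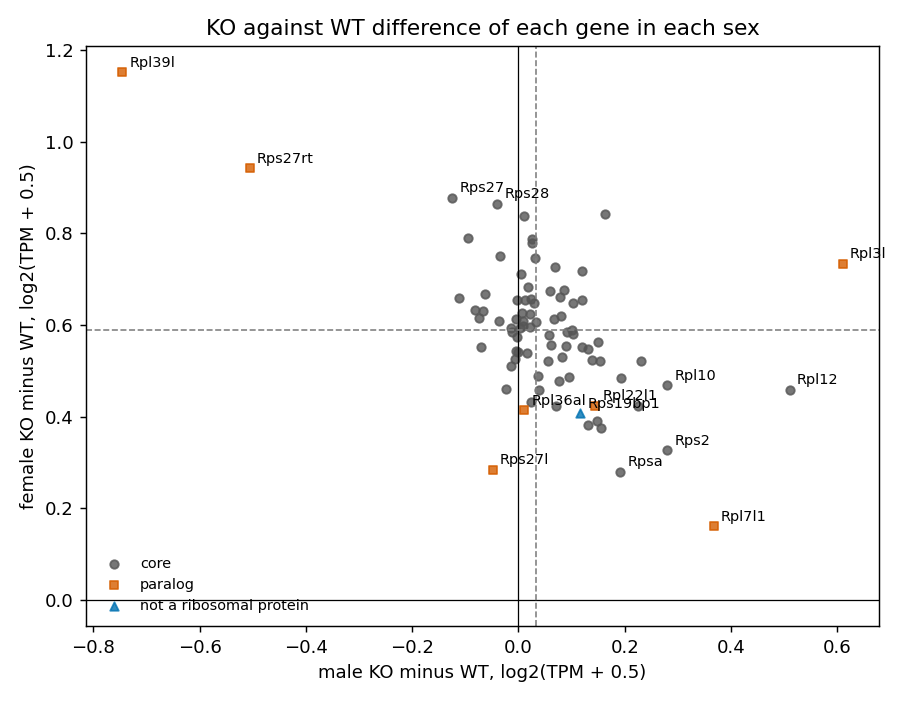
Log2(TPM + 0.5) difference between KO and WT of each of the 85 genes in males (horizontal) and females (vertical), with dashed lines at the medians of 0.03 and 0.59; markers separate core genes, paralogs and Rps19bp1. All points lie above 0 on the female axis, and Rpl39l, Rps27rt, Rpl3l, Rpl12 and Rpl7l1 lie farthest from the cloud on the male axis.

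The interaction of sex and genotype tests whether the KO difference itself differed between females and males. No member passed the adjusted threshold and neither did any of the 12210 genes tested (0%). An unadjusted p under 0.05 with a larger difference in females was found for 13 members, against 2.51% of all genes. The estimate was positive for 83 of 85 members, against 42.9% of all genes, with a median of 0.54 against -0.06. It was negative for 2 members, against 57.1% of all genes: Rpl7l1 (-0.21) and Rpl12 (-0.05), and with copies added 84 members were positive. The largest estimates were those of Rpl39l (1.90, SE 0.62, adjusted p = 0.22 by limma), Rps27rt (1.45, SE 0.75) and Rps27 (1.002, SE 0.40, adjusted p = 0.28), and the smallest positive ones those of Rps2 (0.05) and Rpsa (0.09). Leaving out single libraries moved the number with an unadjusted p under 0.05 from 2, without female KO 1 or without male WT 2, to 50, without female WT 1. Without female WT 4 it was 3, with 81 members positive and a median of 0.39.

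To see which members departed from the others, the median of the members was subtracted in each library. None passed the adjusted threshold in either sex, as was true of 0% of all genes, and in females an unadjusted p under 0.05 was found for 0 members, against 0.156% of all genes higher and 41.8% lower. In males it was found for 2 members higher, against 7.32% of all genes, and 1 lower, against 1.71%. In females the lowest were Rpl7l1 (-0.48, SE 0.28), Rpsa (-0.36, SE 0.19), Rps27l (-0.35, SE 0.18) and Rps2 (-0.31, SE 0.18), and the highest were Rpl39l (0.51, SE 0.46) and Rps27rt (0.31, SE 0.35). The male members were Rpl12 (0.45, SE 0.16, but -0.03 with its copies), Rps2 (0.21, SE 0.085) and Rpl39l (-0.81, SE 0.35), with adjusted p-values from 0.45 to 0.55 by limma.

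Female and male WT mice were compared to see whether the level differed by sex in controls. The prefixes of the female and male WT libraries do not overlap, so sex and prefix cannot be told apart. No member passed the adjusted threshold, against 0.0664% of 12042 genes. A lower mean in females was found for 84 members, against 62.3% of all genes, with a median of -0.24 against -0.05, and only Rpl12 had a higher mean (0.08), against 37.7%. With copies added Rpl12 was lower as well (-0.29), as were all 85 members. Without female WT 4 the median was -0.086 and 79 members were lower, without male WT 2 the values were -0.099 and 77, and over all libraries left out in turn the median ranged from -0.36 to -0.086. The X-linked members were not set apart, with -0.29 for Rpl10 (-0.18 with its copies), -0.31 for Rpl36a, -0.22 for Rpl39 and -0.20 for Rps4x. Rpl39l, whose product is known from male germ cells, was the only member with an unadjusted p under 0.05, against 2.17% of all genes lower. It was also the only one without overlap, against 1.2% of all genes lower and 0.722% higher. It lay at 0.62, 0.81, 1.45 and 1.24 TPM in female WT and at 3.19, 4.39, 1.48 and 5.28 TPM in male WT mice, a difference of -1.34 (SE 0.34, adjusted p = 0.9997 by limma). The ranges nearly touch, at 1.45 and 1.48 TPM. All 5 erythroid markers were higher in female WT mice, each with an unadjusted p under 0.05 (median 1.23). All 6 tested macrophage markers were higher as well (median 0.28). All 10 muscle markers (median -2.87), all 5 endothelial markers (median -0.18) and the 2 tested neutrophil markers were lower, and the other marker lists were split. The part of these lists was not tested.

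The prefix was compared directly within each sex, with genotype in the model. In females, the prefix 8b went with lower values of 84 members, against 76.8% of all genes, with a median of -0.47 against -0.18. No member passed the adjusted threshold, against 0.0165% of 12141 genes, and 26 had an unadjusted p under 0.05 in this direction, against 12.6%. For 58 members the 4 libraries of prefix 8b all lay below the 4 others, against 16.3% of all genes. This prefix is carried by 3 WT and 1 KO libraries, so genotype and prefix are unevenly mixed. Rps7 (-1.11) and Rpl30 (-0.97) had the largest negative values, which became -0.33 and -0.13 with copies added, while Rpl3l alone had a higher mean (2.72, against 23.2% of all genes) and an unadjusted p under 0.05 in that direction, against 2.03%. Leaving out single libraries moved the 26 between 1, without female KO 3 or without female WT 1, and 60, without female WT 3, and it was 18 without female WT 4. Median-of-ratios scaling left 4 and totals without mitochondrial transcripts left 1. The 10 skeletal muscle markers moved with the same prefix, all higher with a median of 5.45. All 5 erythroid markers were higher too, each with an unadjusted p under 0.05 (median 0.97). All 6 brown adipocyte markers (median -0.48) and all 5 endothelial markers (median -0.34) were lower, and the other marker lists were split. The part of these lists was not tested.

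In males, the prefix 9 went with lower values of 83 members, against 34.4% of all genes, with a median of -0.18 against 0.08. None of the members passed the adjusted threshold, against 0.419% of 12176 genes, 3 had an unadjusted p under 0.05 in this direction, against 3.18%, and no member was without overlap, against 0.813% of all genes lower and 10.1% higher. Those 3 became 65 with median-of-ratios scaling, 50 without mitochondrial transcripts and 52 without male WT 1. All 10 muscle markers were lower, with a median of -4.35. All 6 tested macrophage markers (median 0.39) and the 2 tested neutrophil markers (median 0.55) were higher, and the other marker lists were split. The part of these lists was not tested. The exceptions were Rpl7l1 (0.25) and Rpl39l (0.06). Without male WT 2, the library with the highest members in males, 52 members were lower.

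The paralogs were compared with their parents. Rps27l, which p53 is known to induce, and Rps27 sit at different positions in the genome, and their coding sequences of 252 bases are identical at 192 positions (76.2%). Rps27rt, an intronless copy that is annotated as a gene of its own, is identical to Rps27 at all 252. The first 120 coding bases are shown because they decide how far reads can be told apart. They come from GENCODE M21 on GRCm38, the positions are those of the genes, and capitals mark the bases of Rps27l that differ from Rps27.
Rps27, chr3:90212522-90213651, minus strand: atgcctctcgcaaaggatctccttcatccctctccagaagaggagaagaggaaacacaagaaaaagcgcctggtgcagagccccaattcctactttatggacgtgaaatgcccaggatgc
Rps27rt, chr9:114982366-114982739, minus strand: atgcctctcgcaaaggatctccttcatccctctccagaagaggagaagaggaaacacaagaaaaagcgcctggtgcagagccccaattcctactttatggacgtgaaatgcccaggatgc
Rps27l, chr9:66946086-66949516, plus strand: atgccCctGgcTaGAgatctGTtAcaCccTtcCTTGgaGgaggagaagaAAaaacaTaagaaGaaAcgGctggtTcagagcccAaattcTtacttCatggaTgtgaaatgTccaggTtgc

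In this stretch 28 bases of Rps27l differ from Rps27. Values of Rps27rt, in contrast, cannot be separated from Rps27 within the coding sequence and are uncertain.

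Rps27l was listed at 138, 102, 115 and 79.7 TPM in female WT and at 146, 128, 118 and 131 TPM in female KO mice, a smaller difference (0.28, SE 0.18) than that of Rps27. Its share of the sum of both genes was 32.8 ± 4.29% in female WT and 24.6 ± 4.69% in female KO mice (SD, n = 4), a difference of -8.22 percentage points with an exact two-sided permutation p of 0.057 and a Benjamini-Hochberg adjusted p of 0.43 over 12 tests. Without female WT 4, which had the highest share (38.7%), the WT mean was 30.8% and the difference -6.25 points (exact two-sided permutation p = 0.11). The smallest p that 4 against 4 allows is 0.029. In males the shares were 29.5% in WT and 30.6% in KO mice (exact permutation p = 0.66).

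Rpl36al was listed above its parent Rpl36a, with 59.4 to 71.2% of their sum, but an identical copy of Rpl36a held 56.1% of that parent's signal. With the copy added to Rpl36a, the share of Rpl36al was 40.03 to 48.02%, below the parent in all 16 libraries. Rpl22l1, whose parent Rpl22 binds RNA at the surface of the large subunit, held 16.7 to 22.9% of the sum with Rpl22. It lay at 26.5, 28.9, 27.8 and 13.1 TPM in female WT, 35.1, 25.99, 27.2 and 37.4 TPM in female KO, 25.5, 32.7, 22.5 and 27.9 TPM in male WT and 29.996, 33.2, 28.4 and 27.8 TPM in male KO mice. All groups overlapped. Rpl39l held 0.625 to 5.69% of the sum with Rpl39, Rps27rt 0.357 to 4.77% of the sum with Rps27. None of the 12 comparisons of shares had an exact permutation p under 0.05.

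**Figure D4:**
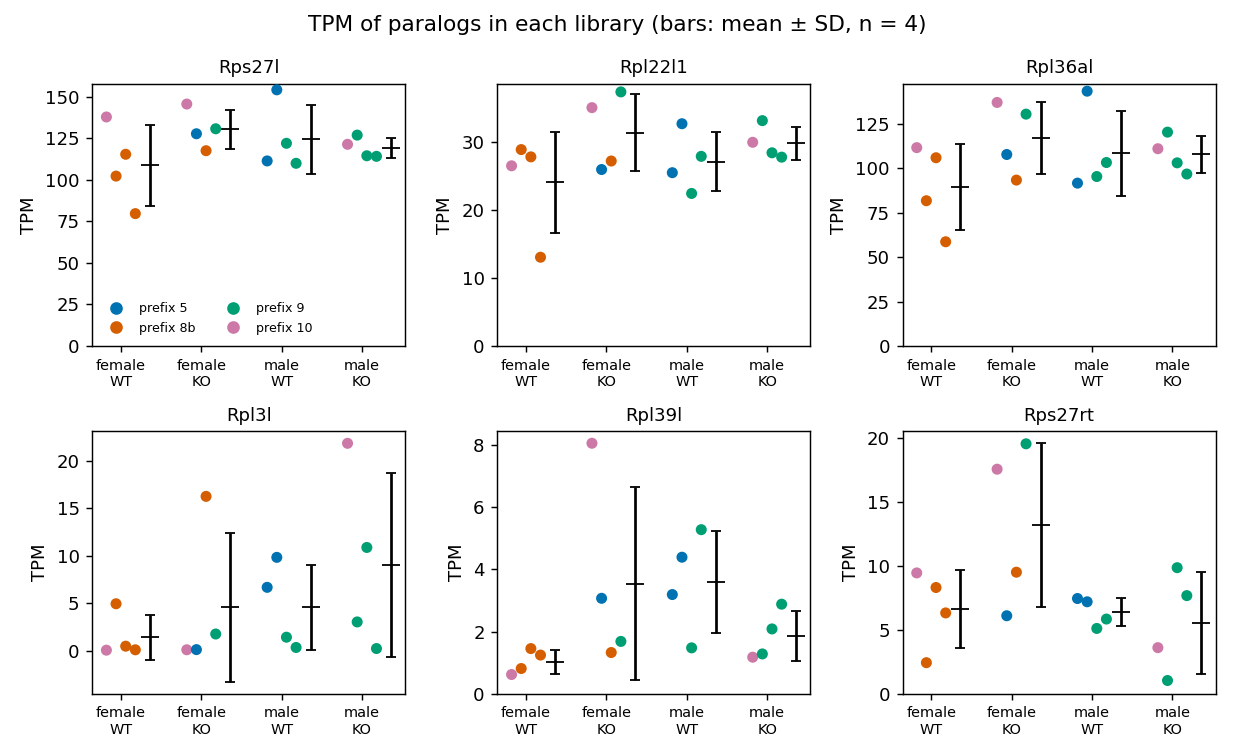
TPM of 6 paralogs in each library by group, coloured by the prefix of the library name, with mean and SD (n = 4) beside the points. Rpl22l1 is lowest in female WT 4 with 13.1 TPM, Rpl39l highest in female KO 1 with 8.05 TPM, and Rpl3l ranges from 0.0937 to 21.8 TPM.

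Rpl3l stood apart from all other members. It takes the place of Rpl3 in muscle ribosomes, and the coding sequences of the pair are 73.2% identical. Rpl3l lay at 0.0937, 4.97, 0.513 and 0.133 TPM in female WT, 0.136, 0.153, 16.2 and 1.79 TPM in female KO, 6.69, 9.84, 1.45 and 0.376 TPM in male WT and 21.8, 3.06, 10.9 and 0.266 TPM in male KO mice. Within every group the values ranged over more than an order of magnitude and the groups overlapped. Its values followed those of 10 skeletal muscle markers, whose sum ran from 2.25 TPM in female WT 4 to 4657 TPM in male KO 1. The 6 libraries with the most Rpl3l were also the 6 with the most muscle markers. Over 16 libraries Pearson's r of the log2 values was 0.96 and Spearman's rho 0.99, and r was 0.97 without the 2 libraries farthest from the median. The 5 genes most like Rpl3l over the libraries were Itgb1bp2, Hrc, Hfe2, Cacna1s and Ampd1, with r from 0.995 to 0.996, among them the calcium channel subunit and the AMP deaminase of skeletal muscle. The KO differences of Rpl3l (0.73 in females, SE 1.1, and 0.61 in males, SE 1.1) changed sign when female KO 3 (-0.29), male KO 1 (-0.10) or male WT 4 (-0.04) was left out. Rpl3, in contrast, differed by 0.46 (SE 0.21) in females and 0.04 (SE 0.14) in males.

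**Figure D5:**
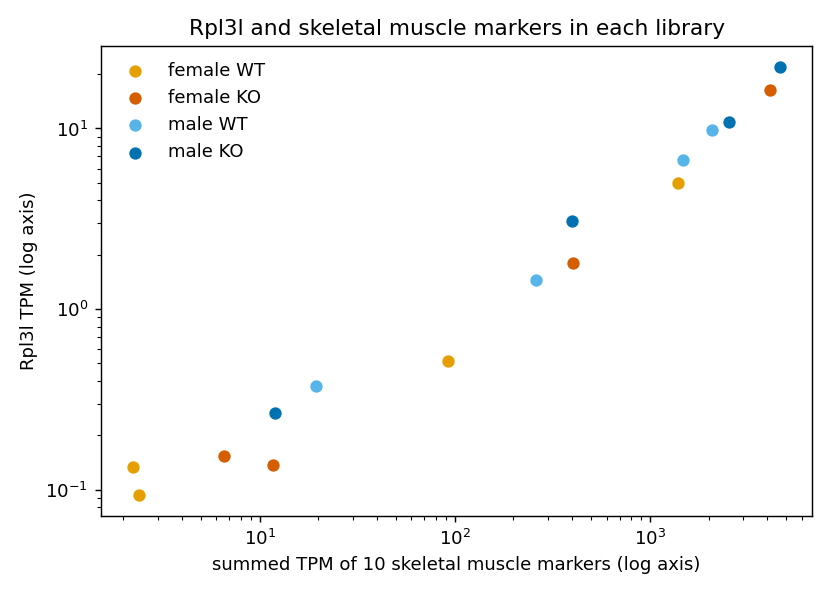
Rpl3l TPM against the summed TPM of 10 skeletal muscle markers in each of the 16 libraries, both on log axes, coloured by group. The points run along 1 line from 0.0937 TPM of Rpl3l in female WT 1 up to 21.8 TPM in male KO 1, and each group has libraries with high and with low muscle markers.

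Genes that work with the ribosomal proteins were listed for comparison. Over all genes, 11.6% in females and 17.7% in males had an unadjusted p under 0.05 in the direction of KO, with medians of 0.10 and 0.16. Among ribosomal proteins that the symbol rule leaves out, Fau had female and male differences of 0.86 and -0.06 and Rack1 of 0.64 and 0.17. Of 20 other translation genes with TOP mRNAs, 7 had an unadjusted p under 0.05 in females in the direction of KO, with a median of 0.38, and 0 in males, with a median of 0.16 that equals the median of all genes. Among them Tpt1 differed by 0.65 and Eef1b2 by 0.54 in females, while Eef2 (0.26), Eef1a1 (0.20) and Pabpc1, the poly(A)-binding protein (0.08), had smaller values. Of 7 host genes of small nucleolar RNAs 4 had an unadjusted p under 0.05 in females, with a median of 0.51. Gas5, whose transcript begins with a TOP, differed by 0.81 (SE 0.24, adjusted p = 0.23 by limma).

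Other lists were set beside these. Of 50 ribosome biogenesis factors 14 had an unadjusted p under 0.05 in the direction of KO in females and 16 in males, with medians of 0.24 and 0.23 against the 0.10 and 0.16 of all genes. RNA polymerase I and its factors (14 genes) had medians of 0.33 and 0.10, initiation factors (26 genes) of 0.13 and 0.18, and ribosome quality control genes (13 tested) of 0.11 and 0.13. Of the 17 tested genes that control TOP mRNAs, among them Mtor, Larp1 and Myc, 2 had an unadjusted p under 0.05 in the direction of lower values in female KO mice and 6 in the direction of higher values in male KO mice, with medians of -0.02 and 0.24. Mtor, the kinase of mTORC1, differed by -0.58 (SE 0.18, adjusted p = 0.23 by limma) in females and by 0.46 (SE 0.19, adjusted p = 0.26) in males, with an interaction of -1.04 (SE 0.27, adjusted p = 0.22). Larp1 differed by -0.02 (SE 0.13) in females and by 0.36 (SE 0.11, adjusted p = 0.198 by limma) in males. No gene of these lists passed the adjusted threshold in either sex.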

How the data were processed

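RNA from BAT was sequenced after stranded mRNA library preparation, and the authors quantified the single-end reads with kallisto 0.46.2 (the processing notes name GRCm39). The deposited values are transcript TPM, scaled by the authors to a sum of 1000000 in each library. The authors tested with DESeq2, which needs counts and was not run here. TPM keep no read number, so the depth is unknown, no counting interval is given and precision rests on the spread between mice.

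Of 137438 transcript identifiers, 135051 matched GENCODE M21 and were summed per symbol. Log2(TPM + 0.5) was fitted with limma 3.58.1 (R 4.3.3, eBayes with a trend), with sex and genotype taken from the labels. Members, gene lists and tests were chosen with earlier results of these data known. Named were the paralogs and parents, the 5 highest and lowest members by level, the 3 most changed each way in each comparison, members against the majority, the stalk proteins and Rpsa, X-linked members in the sex comparison, the 5 most and least variable members, Fau and Rack1 (another gene of this kind is not reported here), genes of the lists, Gdf15 and Ucp1. Other members (such as those without overlap, or with copies or an unadjusted p under 0.05) were named after their values were seen. Copies were found with BLAST 2.17.0.

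The settings varied were the pseudocount (0.1 or 1), the TPM minimum (none or 5), median-of-ratios scaling, totals without mitochondrial transcripts, coding transcripts only, pseudogenes added to the parent, no trend, a replicate block, a prefix covariate, removal of a length and GC trend (with and without the block), a fit of all 16 libraries, values within a prefix and leaving out each library. Removing unmatched transcripts and adding near-identical copies were chosen after seeing the data. On simulated data for female KO against WT (12141 genes, 200 changed), limma recovered 102 genes at a log2 change of 1, with 6 false calls, and 185 at 2, with 9 false calls. With no change it made 0 calls. Genes were simulated independently of each other, unlike the members, and a change as small as the members' median was not tried.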

Additional observations from a re-analysis of the deposited data

Results flagged for a closer look

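Values that lay far from the other 3 mice of their group are given here, found by comparing the gap to the nearest mouse with the range of the group. Of 68 groups of 4 checked, 6 were found, and chance gives about 1 in 20. Rpl3l was 4.97 TPM in female WT 2, against 0.0937 to 0.513 TPM in the other female WT mice. Rpl3l was also 16.2 TPM in female KO 3, against 0.136 to 1.79 TPM. Rpl22l1, the paralog of Rpl22, was 13.1 TPM in female WT 4, against 26.5 to 28.9 TPM. Rpl7l1, the assembly paralog of Rpl7, was 18.5 TPM in female KO 1, against 25.4 to 26.1 TPM, in the library with the highest median of the members. The copies' sum divided by the members' sum was 0.295 in female WT 4, against 0.280 to 0.281. The same library had 17.7% of its TPM in unmatched transcripts, against 0.347 to 0.450%.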

How the results depend on the processing

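No member passed the adjusted threshold under any alternative that was run. Counts under the alternatives, other than within a prefix, stand without the share of all genes. They therefore do not show whether the members moved apart from all genes. In females, 82 to 85 members stayed higher in KO, and the median stayed between 0.35 and 0.59 under the alternatives other than leaving out single libraries. In males, the 61 members with a higher KO mean became 9 with median-of-ratios scaling, 22 without mitochondrial transcripts and 22 without mitochondrial and unmatched transcripts, and ranged from 30 to 83 when single libraries were left out. The 83 members lower with the prefix 9 in males ranged from 52 to 84. The cause was not tested. The number of members with a larger female than male KO difference at an unadjusted p under 0.05 was 64 with median-of-ratios scaling and 7 with the length and GC trend removed, in place of 13. Pairing of the mice by replicate number was not evident: same-numbered KO and WT libraries correlated between -0.12 and 0.15 in females and between -0.08 and 0.35 in males. These correlations cannot exclude a pairing. With a replicate block the count of members with an unadjusted p under 0.05 was 44 in place of 55 in females and 1 in place of 2 in males, and no adjusted call changed. The depth of the libraries is unknown, and for the 37 members with near-identical copies the listed level depends on how reads were divided.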
